A study of Mus musculus with 21 samples.

Results

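The T cell receptor segment genes are the variable (V) and constant genes of the alpha, beta, gamma and delta chains of the T cell receptor. They were taken by name from the gene tables of 9 skin and 12 lymph node libraries, as every gene whose symbol began with Trav, Trbv, Trdv, Trgv, Trac, Trbc or Trdc. The rule gave 182 of the 55491 genes in each table: 120 alpha V genes, 10 V genes shared by the alpha and delta loci (dv in the name), 35 beta V genes, 6 delta V genes, 7 gamma V genes, and Trac, Trbc1, Trbc2 and Trdc. Of these, 34 are annotated as pseudogenes. No symbol began with Tcrg, because the tables name the gamma constant genes Trgc1 to Trgc4. These 4 genes fall outside the rule and are given beside the members. On GRCm38, Trac lies at chr14:54220521-54224206, Trdc at chr14:54142851-54148868, Trbc1 at chr6:41538218-41539881 and Trbc2 at chr6:41546730-41548352, all on the plus strand.

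The mice were BALB/c wild type (WT) or carried an Ifnk transgene (TG) driven by the keratin 14 promoter, which is active in basal keratinocytes, so that the type I interferon IFN-κ is made in the epidermis. The transgene was introduced on C57BL/6 and backcrossed to BALB/c. Skin came from mice aged 12 months and no skin library was irradiated: 3 WT libraries (numbered 8 to 10), 2 from nonlesional TG skin (2 and 3) and 4 from lesional TG skin (4 to 7). Mice of both sexes were used, and the sex, the mouse and the body site behind a library were not stated. Inguinal lymph nodes, which drain skin, came from WT and TG mice, 3 libraries in each of 4 groups: WT without UV (1 to 3), TG without UV (4 to 6), WT after UV (7 to 9) and TG after UV (10 to 12). UV was 250 mJ/cm2 of UVB (310 nm) on 3 days a week for 2 weeks, followed by 2 weeks of observation. The age of the mice behind the nodes and the mouse behind each library were not given in the sources used here, so p-values measure the spread between libraries, which may be technical.

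A T cell carries either an alpha-beta or a gamma-delta receptor, and each chain is put together by joining a V gene to downstream segments and a constant gene. In mice, the epidermis holds dendritic epidermal T cells, a gamma-delta population that settles before birth and uses nearly the same receptor in every cell, made of the gamma V gene Trgv5 and the delta V gene Trdv4. Gamma-delta cells of the dermis mostly use Trgv4 or Trgv6, whereas circulating alpha-beta cells use many V genes. In bulk RNA, fewer cells of a type and less RNA per cell cannot be told apart.

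The germline ends of Trgv5 and Trdv4, used by the epidermal receptor, are shown beside that of Trgv6, a gamma V gene used in the dermis. They are the last 180 coding bases of Trgv5 (Tcrg-V5 in GENCODE; chr13:19192546-19192725, plus strand), Trgv6 (Tcrg-V6; chr13:19190750-19190929, plus strand) and Trdv4 (chr14:54075336-54075515, plus strand), on GRCm38 from GENCODE M21. Each stretch lies in the V exon, and capitals mark the cysteine codon at which the junction to the next segment begins. Trgv5 and Trgv6 are neighbours on chromosome 13, yet their whole coding sequences were identical at 52.3% of aligned positions.
Trgv5: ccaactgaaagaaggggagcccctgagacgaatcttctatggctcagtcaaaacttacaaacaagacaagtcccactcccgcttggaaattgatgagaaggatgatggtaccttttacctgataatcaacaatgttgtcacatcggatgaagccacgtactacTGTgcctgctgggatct
Trgv6: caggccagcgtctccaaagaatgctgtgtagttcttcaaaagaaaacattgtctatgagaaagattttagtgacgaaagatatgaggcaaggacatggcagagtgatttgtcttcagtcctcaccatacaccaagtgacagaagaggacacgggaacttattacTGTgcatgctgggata
Trdv4: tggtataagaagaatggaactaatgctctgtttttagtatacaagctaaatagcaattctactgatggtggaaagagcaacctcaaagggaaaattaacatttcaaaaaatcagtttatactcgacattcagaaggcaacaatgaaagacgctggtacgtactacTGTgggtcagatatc

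Skin libraries held 40499078 to 56511276 counts and node libraries 27599809 to 36428435. Members made up 0.00227% to 0.00455% of skin counts (998 to 2235 counts) and 0.0869% to 0.125% of node counts (24845 to 39572), so single V genes in skin rested on few reads. Ifnk had 0 counts in the 3 WT skin libraries, 0 to 6 in nonlesional and 5 to 14 in lesional TG skin, and 0 in all 12 node libraries, which therefore offer no check of genotype. The summed level of Cd3d, Cd3e, Cd3g and Cd247, which mark T cells, was 942 to 1270 CPM (counts scaled to a common library size) in nodes and 19.9 to 50.5 CPM in skin. Lesional skin also differed in other tissue: the sum of 3 skeletal muscle genes was 13.5 to 3383 CPM against 13933 to 18836 in WT skin, and the sum of 3 hair shaft keratins was 599.9 to 2302 CPM against at most 0.319 in WT and nonlesional skin. The summed neutrophil genes stood at 6.65 to 14.4 CPM in WT, 8.21 to 10.4 in nonlesional and 54.4 to 537 in lesional skin, and the summed adipocyte genes at 1418 to 2331, 1186 to 1516 and 74.7 to 653 CPM. The part of these shifts in the results below was not tested, and ratios within a library are given where they bear on it.

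In skin, 84 of the 182 members had no count in any of the 9 libraries and 98 were counted. A filter on low counts left 13 for testing among 19101 genes: Trac, Trbc1, Trbc2, Trdc, Trdv4, 4 gamma V genes and 4 beta V genes. None of the 130 alpha V genes passed it, and these are described by their sums. Comparing lesional TG with WT skin asked how receptor transcripts differ where a lesion has formed. Of the 13 tested members, 5 rose and 3 fell at an adjusted p under 0.05 (edgeR), against a background of 23% of all genes tested rising and 20.2% falling. The members that fell, Trgv5, Trdv4 and Trdc, belong to gamma-delta receptors. Those that rose, Trac, Trbc1, Trbc2, Trbv1 and Trbv29, belong to alpha-beta receptors. The filter keeps a sparse gene if it is high in some group, so these counts describe the 13 and not all members.

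Trgv5, the gamma V gene of the epidermal receptor, had 63, 37 and 36 counts in WT skin, 52 and 90 in nonlesional skin and 22, 2, 2 and 0 in lesional skin. The lesional libraries did not overlap with either other group, and library 4 held most of their Trgv5 counts. The mean level was 0.123 ± 0.186 CPM (SD, n = 4) in lesional, 1.07 ± 0.319 (n = 3) in WT and 1.60 ± 0.858 (n = 2) in nonlesional skin. Trgv5 fell by 3.04 on the log2 scale against WT (SE 0.94, edgeR adjusted p = 0.0290) and by 3.62 against nonlesional skin (SE 1.00, adjusted p = 0.0302). The call against WT was lost when lesional library 5 or 6 or any 1 of the 3 WT libraries was left out, and that against nonlesional skin without lesional library 5 or 6 or either nonlesional library.

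Trdv4, its delta partner, had 195, 103 and 171 counts in WT skin, 164 and 134 in nonlesional skin and 18, 11, 14 and 21 in lesional skin. All 4 lesional libraries were low and close together, at 0.321 ± 0.0446 CPM against 3.71 ± 1.10 in WT and 3.21 ± 0.107 in nonlesional skin. The level was 11.4-fold lower than in WT (log2 fold change -3.51, SE 0.28, edgeR adjusted p = 9.77e-05) and 9.87-fold lower than in nonlesional skin (-3.30, SE 0.30, adjusted p = 0.000561). These were the smallest p-values of any member in either comparison.

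The constant genes of the same receptors fell less. Trdc, the delta constant gene, had 599, 413 and 571 counts in WT, 521 and 624 in nonlesional and 415, 251, 161 and 272 in lesional skin. In CPM the lesional libraries all lay below the others, and Trdc was 2.26-fold lower than in WT (log2 fold change -1.17, SE 0.28, edgeR adjusted p = 0.00901) and 2.27-fold lower than in nonlesional skin (-1.19, SE 0.30, adjusted p = 0.0229). Trgc1, the gamma constant gene that Trgv4 to Trgv7 join and no member by the rule, fell 3.10-fold against WT (log2 fold change -1.63, SE 0.26, adjusted p = 0.00153), from 8.66 ± 1.04 to 2.79 ± 0.722 CPM. Trgc2, the constant gene of the Trgv2 cluster, went from 1.09 ± 0.146 to 2.59 ± 1.47 CPM and did not pass the test (adjusted p = 0.0864). Trgc4 went from 0.875 ± 0.333 to 0.461 ± 0.179 CPM (adjusted p = 0.0899). Trgc3 had 1 count in 1 lesional library and none elsewhere in skin.

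**Figure D1:**
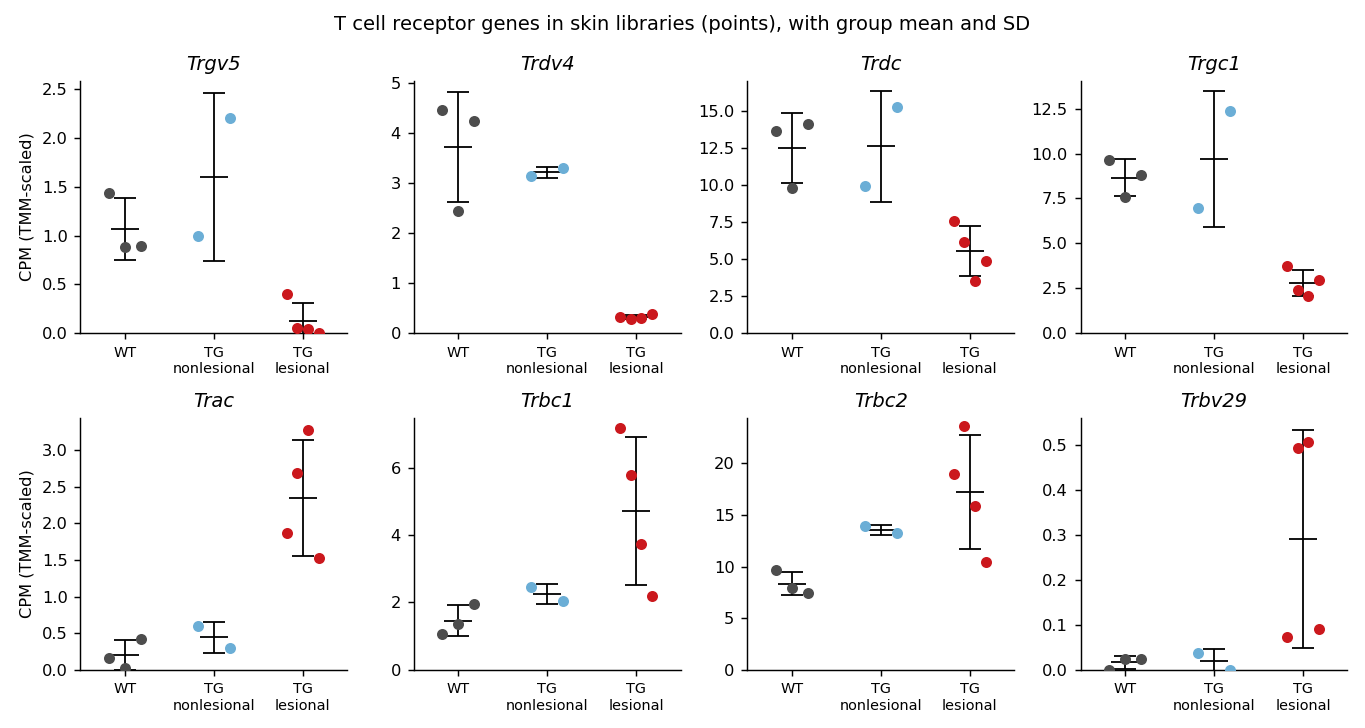
Level in CPM of 8 receptor genes in each skin library (points) with the group mean and SD (bars), for WT (n = 3), nonlesional TG (n = 2) and lesional TG skin (n = 4). Lesional libraries lie below both other groups for Trgv5, Trdv4, Trdc and Trgc1 and above WT for Trac, Trbc1, Trbc2 and Trbv29.

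The makeup of the gamma and delta V counts within each library differed in the same way, as shares within a library. Per exon length, Trgv5 took 61.1% to 78.4% of the gamma V signal in WT skin and 79.6% to 88.6% in nonlesional skin, but 0% to 33.9% in lesional skin, where gamma V genes together had 36 to 78 counts. Trdv4 took 93.0% to 98.3% of the delta V signal in WT, 95.7% to 98.1% in nonlesional and 42.6% to 77.1% in lesional skin. Set against the constant gene, there were 24.9 to 32.6 Trdv4 counts per 100 Trdc counts in WT, 21.5 to 31.5 in nonlesional and 4.34 to 8.70 in lesional libraries.

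The other gamma V genes did not pass the test in any skin comparison with edgeR, while DESeq2 called Trgv6 higher in lesional than in nonlesional skin (DESeq2 adjusted p = 0.0132). Trgv6, used in the dermis, had 0, 4 and 10 counts in WT, 0 and 0 in nonlesional and 15, 7, 9 and 7 in lesional skin. Against nonlesional skin this is at least 2.94-fold higher, taking 3 counts per library as the floor (edgeR adjusted p = 0.0517), and against WT the groups overlapped (adjusted p = 0.537). Trgv4 had 13, 6 and 7 counts in WT and 9, 19, 5 and 19 in lesional skin (adjusted p = 0.623), and Trgv2 had 10, 9 and 12 against 26, 42, 20 and 10 (adjusted p = 0.162). Trgv1 and Trgv7 had at most 8 counts in any skin library, and Trgv3 had none. Of the other delta V genes, Trdv2-2 had 3, 6 and 4 counts in WT and 19, 9, 1 and 10 in lesional skin and was not tested. Trdv5, whose exons lie opposite those of Trdc, had 13 counts in lesional library 7 and at most 3 elsewhere, and reads of the pair cannot be told apart where counting ignores strand.

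**Figure D2:**
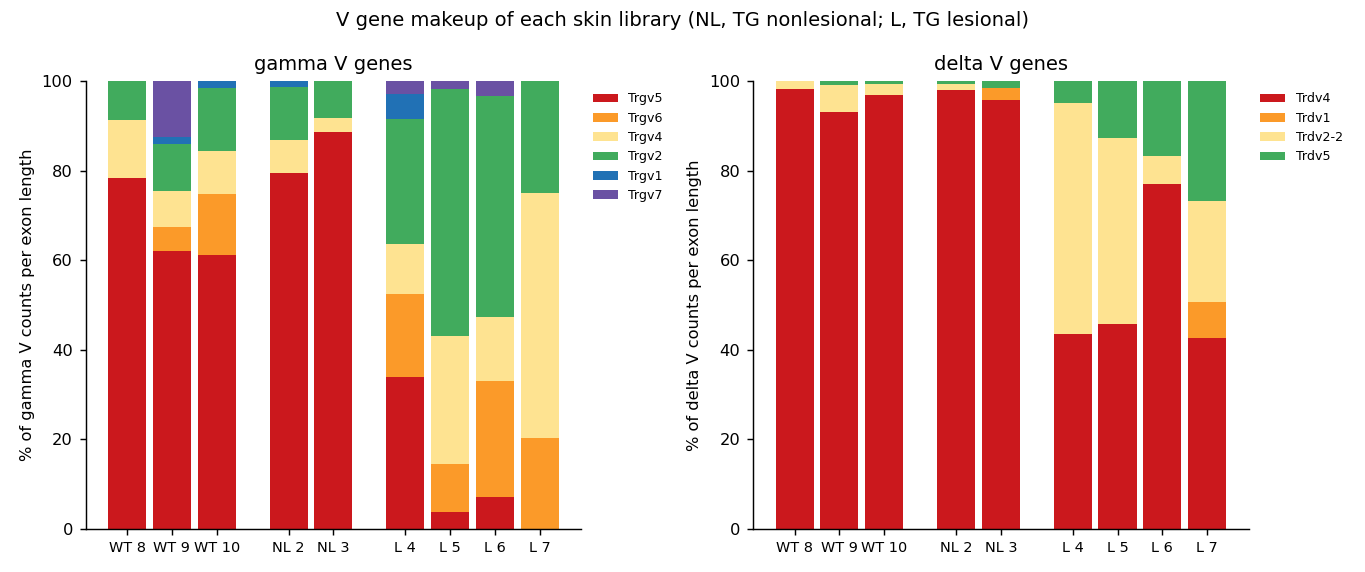
Share of each gamma V gene (left) and delta V gene (right) in the counts per exon length of its chain, one bar per skin library (WT 8 to 10, nonlesional 2 and 3, lesional 4 to 7). Trgv5 makes up 61.1% to 88.6% of the gamma V signal in WT and nonlesional libraries and at most 33.9% in lesional ones.

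On the alpha-beta side, Trac, the only alpha constant gene, had 7, 1 and 17 counts in WT skin, 31 and 12 in nonlesional skin and 103, 109, 149 and 85 in lesional skin. Every lesional library was above every other, and the level was 11.6-fold higher than in WT (log2 fold change 3.53, SE 0.71, edgeR adjusted p = 0.00455). Against nonlesional skin the log2 fold change was 2.38 (SE 0.77) and just missed the threshold (adjusted p = 0.0515). Trbc2, the more abundant beta constant gene, had 422, 334 and 302 counts in WT, 728 and 540 in nonlesional and 1043, 957, 720 and 578 in lesional skin. It rose 2.06-fold against WT (log2 fold change 1.04, SE 0.25, adjusted p = 0.0107) but not detectably against nonlesional skin (0.34, SE 0.28, adjusted p = 0.408). Trbc1 rose 3.25-fold against WT (log2 fold change 1.70, SE 0.42, adjusted p = 0.0117), with lesional libraries spread from 2.20 to 7.17 CPM. Trbc1 and Trbc2 are 95.5% identical over their coding sequence, so the split of reads between them is uncertain, and their sum was 381 to 468 counts in WT and 700 to 1437 in lesional skin.

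The constant genes of the paired chains were far apart in WT skin. Per kilobase of exon, Trbc2 stood at 12.0 ± 1.64 CPM and Trac at 0.215 ± 0.216 (n = 3), against 592 ± 47.3 and 235 ± 19.9 in nodes without UV (n = 3). WT skin held 381 to 468 beta constant counts but only 10 to 26 beta V counts, which is 14.7 to 39.1 constant counts for each V count. In lesional skin that ratio was 6.40 to 16.5 and in the 12 node libraries 2.82 to 3.31.

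V genes of the alpha and beta chains had few counts in WT skin and more in lesional skin. Alpha V genes together, those shared with the delta locus included, had 4, 8 and 5 counts in WT, 22 and 9 in nonlesional and 76, 73, 91 and 54 in lesional skin. Beta V genes had 14, 10 and 26 counts in WT, 38 and 8 in nonlesional and 87, 122, 139 and 68 in lesional skin. The lesional libraries were above all others for both chains, with 17 to 35 alpha V genes and 10 to 16 beta V genes counted per library. These numbers of genes rise with the counts. Thinned to 4 alpha V and 8 beta V counts, the lowest chain totals in skin, the expected numbers overlapped. They were 2.0 to 4.0 in WT and 3.28 to 3.75 in lesional skin for alpha V. For beta V they were 4.76 to 5.18 in WT and 3.90 to 5.73 in lesional skin.

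Among the tested beta V genes, Trbv29 had 0, 1 and 1 counts in WT and 4, 20, 23 and 5 in lesional skin (log2 fold change 3.96, SE 1.22, edgeR adjusted p = 0.0286). Trbv1 had no count in WT or nonlesional skin and 7, 29, 11 and 1 counts in lesional skin, at least 3.87-fold higher than WT with 3 counts per library as the floor (adjusted p = 0.0493). Both calls were lost without lesional library 5 or 6, or without any 1 WT library. That of Trbv1 was also lost without library 4. Trbv19 and Trbv13-2 did not pass with edgeR (adjusted p = 0.0653 and 0.155), while Trbv19 was called by DESeq2 (DESeq2 adjusted p = 0.0417) and by edgeR without lesional library 7.

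The leading beta V gene was another one in each lesional library. It was Trbv19 in library 4, with 49 of 87 beta V counts (56.3%), Trbv1 in library 5, with 29 of 122 (23.8%) and Trbv14 close behind at 28, Trbv13-1 in library 6, with 28 of 139 (20.1%), and Trbv31 in library 7, with 17 of 68 (25.0%). Trbv14, Trbv13-1 and Trbv31 are named here because of these values. Among alpha V genes, Trav21-dv12 had 23 of 73 counts in library 5 and Trav10n 15 of 91 in library 6. In library 4, of 76 alpha V counts, Trav14d-2 and Trav14n-2 had 10 each and Trav8d-1 had 12. The first pair is identical over 364 coding bases and had equal counts in every skin and node library, so its counts belong to the pair. These alpha V genes were again chosen after their values were seen. At these depths the libraries cannot be compared gene by gene.

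The balance of delta to alpha constant counts was compared inside each library as the log2 ratio of Trdc to Trac, with 0.5 counts added to each. It was 6.32, 8.11 and 5.03 in WT skin, 4.05 and 5.64 in nonlesional skin and 2.01, 1.20, 0.11 and 1.67 in lesional skin. Lesional libraries lay below all others, by 5.24 on average against WT (exact permutation test over libraries, two-sided, p = 0.0286, the smallest that 35 relabellings allow; 0.257 after Benjamini-Hochberg adjustment over the 9 comparisons of this ratio). The value of 8.11 rests on a single Trac count, and without that library the difference was 4.43 in size, in the same direction. Against nonlesional skin the difference was 3.60 in size (exact permutation p = 0.0667, the smallest possible with 15 relabellings). Relative to the CD3 chains, WT skin had 40.8 to 47.0 Trdc counts per 100 counts of Cd3d, Cd3e and Cd3g, nonlesional skin 36.3 and 37.3, and lesional skin 11.8 to 28.9. Trac went the other way, from 0.108 to 1.40 in WT and 0.717 to 2.16 in nonlesional to 6.07 to 10.9 in lesional skin. The summed level of those 3 CD3 chains overlapped between groups, at 21.9 to 33.4 CPM in WT and 16.9 to 33.1 in lesional skin.

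The other genes of the receptor pathway split as well. Of 7 CD3 chains and coreceptors, 3 rose in lesional against WT skin and none fell: Cd4, the coreceptor of helper cells (log2 fold change 1.86, edgeR adjusted p = 0.00639), Cd8a (4.85, adjusted p = 0.00899) and Cd8b1 (5.27, adjusted p = 0.00649). The CD3 chains did not pass, with Cd3g at -0.12 (adjusted p = 0.740). Library 7 had 51 Cd8a counts where the other lesional libraries had 370 to 551. Of 8 genes of receptor-proximal signalling, 5 rose and none fell, among them Lck, the kinase that starts the signal (1.59, adjusted p = 0.00196), and Cd5, a brake on it (3.61, adjusted p = 0.000927). The medians of these lists were 0.88 and 1.35, beside 0.06 over all genes tested, of which 23% rose and 20.2% fell.

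Genes that gamma-delta cells use outside the receptor moved in both directions in the same comparison. Cd163l1, a scavenger receptor family member of gamma-delta cells (log2 fold change -0.80, edgeR adjusted p = 0.0250), fell. The interleukins Il17a, with no count in WT and 13, 8, 6 and 49 in lesional skin (adjusted p = 0.0169), and Il17f, with 1 WT count in all and 8, 17, 2 and 35 (adjusted p = 0.0223), rose, as did Sox13 and Itgae. Itgae is also expressed by other skin cells. Of the 11 genes of the Skint family, butyrophilin-like keratinocyte proteins of which Skint1 is needed for dendritic epidermal T cells to mature, 8 were tested. Skint1 (1.56, adjusted p = 0.0113) and Skint2 (1.22, adjusted p = 0.0252) rose and Skint5 (-1.09, adjusted p = 0.00653) fell. Over all genes tested, 23% rose and 20.2% fell, so these calls do not set the family apart. The median of the Skint genes tested was -0.16.

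Lesional and nonlesional skin of TG mice were compared to separate the lesion from the genotype; this comparison uses the same lesional libraries as the one with WT skin. Of the 13 tested members, 3 fell (Trdv4, Trgv5 and Trdc, values above) and none rose at an adjusted p under 0.05 with edgeR, where 11.8% of all genes fell and 13.2% rose. At an unadjusted p under 0.05, 5 members were higher and 3 lower, where 20.4% of all genes were higher and 18.6% lower. DESeq2 called 4 members higher and 3 lower, where it called 17.6% of all genes higher and 15.1% lower. With edgeR on these 6 libraries alone, 2 members were called: Trdv4 stayed lower, Trac was also called, as higher, and the calls of Trgv5 and Trdc were lost. Trgc1 fell by 1.79 on the log2 scale (SE 0.29, adjusted p = 0.00375). Leaving out either nonlesional library kept 1 member called, Trdv4, with 1 library in that group assumed to vary like the others.

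Nonlesional TG skin against WT asked what the transgene does without a lesion. No member was called with edgeR, as was no gene at all (0% of 19101), nor any member with DESeq2 (0.43% of all genes). At an unadjusted p under 0.05 there were 2 members, where 7.67% of all genes were. Trbc2 was 13.6 ± 0.474 CPM (n = 2) against 8.34 ± 1.14 (n = 3), both nonlesional libraries lying above all WT libraries (log2 fold change 0.70, SE 0.29, adjusted p = 0.646). Trgv6 had no nonlesional count. Trdv4, Trgv5 and Trdc, which fell in lesional skin, had log2 fold changes of -0.21 (SE 0.31), 0.58 (SE 1.00) and 0.01 (SE 0.33). Their 95% intervals were -0.81 to 0.40, -1.38 to 2.54 and -0.63 to 0.66.

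In lymph nodes, 151 members were counted, 31 had no count in any of 12 libraries, and 108 were tested among 16173 genes. They were 69 alpha V, 8 alpha or delta V, 21 beta V, 4 delta V and 2 gamma V genes and the 4 constant genes. Nodes held the opposite balance to skin: the log2 ratio of Trdc to Trac was -4.27 to -3.21 across the 12 libraries. Trgv5, the gamma chain of the epidermal receptor, had 0 counts in all 12, which at 3 counts of a library total allows a share of up to 1.09e-05% in the shallowest, by counting error alone.

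Nodes used many V genes at steady shares. Per exon length, Trav3-3 led the alpha V genes at 6.66% ± 0.390 (SD, n = 12) of their signal, and Trbv5 (11.4% ± 0.842), Trbv13-2 (10.7% ± 0.675) and Trbv13-1 (9.65% ± 0.719) led the beta V genes, all but Trbv5 named for their rank. The order of Trbv5 and Trbv13-2 lies within their spread. Trbv29 varied most among the 10 leading beta V genes, from 5.43% to 12.3% (7.91% ± 1.91), with the top value in WT UV library 9. The effective number of V genes, the number of equally used genes that would give the same evenness, was 54.7 to 58.9 for alpha and 13.8 to 14.9 for beta. Copies that the counting could not separate entered it as separate genes. Thinned to the lowest chain total in the nodes, 88.8 to 94.9 alpha V genes and 21.9 to 23.8 beta V genes were expected, and these expected numbers overlapped between the 4 groups. The effective number of beta V genes was 14.44 to 14.48 in untreated WT and 13.8 to 14.4 in irradiated TG nodes, which did not overlap and were not tested.

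V genes of invariant receptors were rare in nodes. Trav11 and its copy Trav11d, used by natural killer T cells, had 4 to 21 counts together and were never counted in the same library. Trav1, used by mucosal-associated invariant T cells, had 12 to 33 counts. Such low counts resolve no group difference here, and Trav1 and Trav11d were called in no comparison, while Trav11 was not tested.

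BALB/c mice carry endogenous retroviral superantigens that delete T cells bearing certain beta V genes in the thymus, so those genes were listed separately. The 5 listed, Trbv26, Trbv12-1, Trbv12-2, Trbv15 and Trbv16, ranked 15 to 20 of 22 beta V genes that are not pseudogenes, with Trbv30 among them at rank 18. Their mean shares per exon length ran from 0.125% for Trbv26 to 1.05% for Trbv16, where the median over the 22 was 4.52%.

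**Figure D3:**
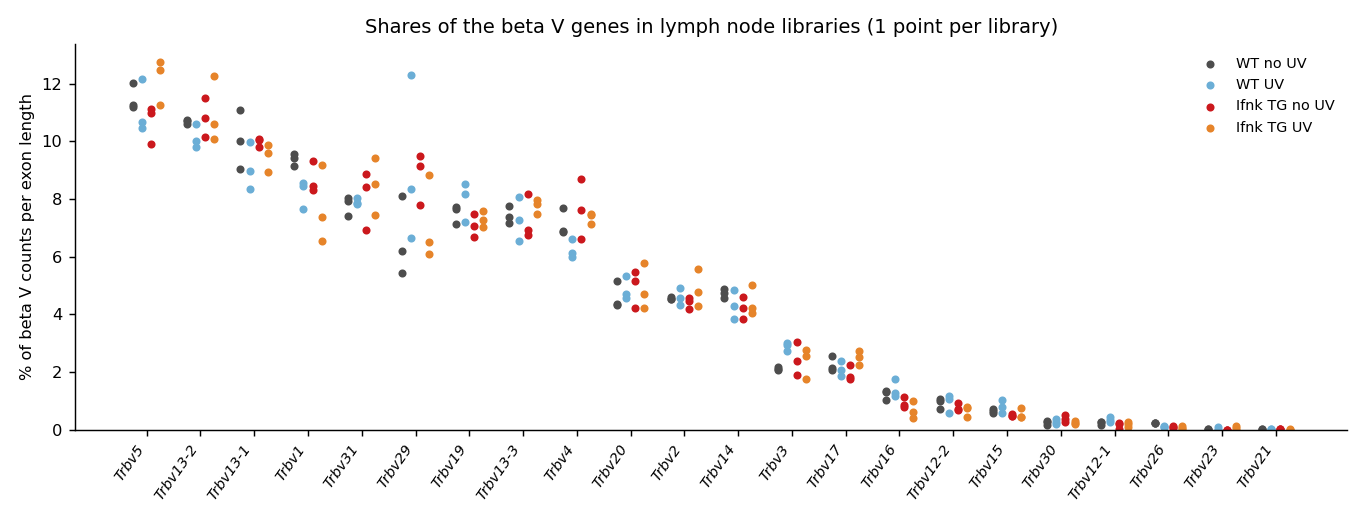
Share of each of 22 beta V genes in the beta V counts per exon length of a lymph node library, 1 point per library and colours for the 4 groups. Genes are ordered by mean share, from Trbv5 at 11.4% to Trbv21, and the points of the 4 groups overlap for most genes.

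Comparing UV with no UV in WT nodes asked how receptor transcripts in the draining node stand after irradiation. Trbc2 and Trbv5 fell and no member rose (edgeR adjusted p under 0.05), where 2.06% of all genes fell. Trbc2 was 387, 447 and 395 CPM without UV and 285, 290.01 and 318 after UV, without overlap (log2 fold change -0.46, SE 0.10, adjusted p = 0.0304). Trbv5 was 20.6, 21.6 and 20.6 CPM without UV and 14.9, 16.7 and 16.2 after UV (-0.39, SE 0.10, adjusted p = 0.0414), and its exons overlap the gene 5830405F06Rik on the same strand. Neither call was robust to the libraries: Trbv5 was lost without any 1 of the 6, and Trbc2 without any except WT library 1.

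The other members mostly pointed the same way without passing. At an unadjusted p under 0.05, 25 of 108 tested members were lower and none higher, where 12.1% of all genes were lower. The median log2 fold change was -0.38 over the members and -0.0048 over all genes, and 92 of 108 were negative. The constants Trac (-0.40, SE 0.14, edgeR adjusted p = 0.103), Trbc1 (-0.33, SE 0.09, adjusted p = 0.0572) and Trdc (-0.46, SE 0.15, adjusted p = 0.0898) stayed short of the threshold. DESeq2 called 13 members, all lower, where it called 6.65% of all genes lower. An edgeR fit of these 6 libraries alone also called 13, all lower, where 5.64% of all genes were. Members share cells and reads, so their number is not a count of independent tests.

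T cell genes outside the receptor were also lower. The summed level of the 4 T cell markers was 1199.8 to 1270.1 CPM without UV and 942 to 1032 after UV in WT nodes. Of 7 CD3 and coreceptor genes (median -0.24), 4 were lower at an unadjusted p under 0.05, where 12.1% of all genes were. None was called by edgeR and 2 by DESeq2, where 2.06% and 6.65% of all genes were called lower. The summed B cell markers overlapped (1620 to 2019 against 1492 to 1889 CPM), and the erythroid genes went from 77.9 to 164 CPM without UV to 6.28 to 25.8 after UV. Per 100 counts of Cd3d, Cd3e and Cd3g, the beta constants had 60.4 to 66.1 counts without UV and 55.7 to 60.0 after UV, and Trac 19.4 to 24.1 against 19.1 to 21.3. The part of these shifts in the receptor values was not tested.

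In TG nodes, UV gave no called member with edgeR, and no called gene at all (0% of 16173). At an unadjusted p under 0.05 there were 2 members lower and 1 higher, where 9.32% of all genes passed in either direction, and DESeq2 called no member (0.85% of all genes). Trbc2 was 344, 350.03 and 335 CPM without UV and 294, 309 and 369 after UV, and Trac 206, 179 and 200.1 against 149, 191 and 236, so that both overlapped. The median over the 108 members was -0.08.

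The difference between the 2 UV responses was tested as the interaction of UV and genotype, and no member or other gene was called (0% of 16173). At an unadjusted p under 0.05, 8 members had a less negative or more positive UV response in TG nodes and none the reverse, where 3.01% of all genes had the former. DESeq2 called no member (0.0496% of all genes). Trbv5 had the smallest p (difference of log2 fold changes 0.48, SE 0.14, edgeR adjusted p = 0.848) of the members, and Trav3-4 the next (1.20, SE 0.40, adjusted p = 0.848). A decline in WT and not in TG nodes is thus not shown to differ between them.

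Averaged over both genotypes, Trbc1 fell after UV (log2 fold change -0.27, SE 0.07, edgeR adjusted p = 0.0294), as did Trbc2 (-0.27, SE 0.07, adjusted p = 0.0335), and no member rose, where 3.8% of all genes fell. At an unadjusted p under 0.05, 19 members were lower and 1, Trdv4, was higher, where 12.6% of all genes were lower. The median was -0.24 over the members and 0.01 over all genes. Both calls were lost without any 1 of 9 of the 12 libraries, and Trbc2 alone without WT UV library 9, and 17 members were called without TG UV library 12, which had the highest Trac level after UV.

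**Figure D4:**
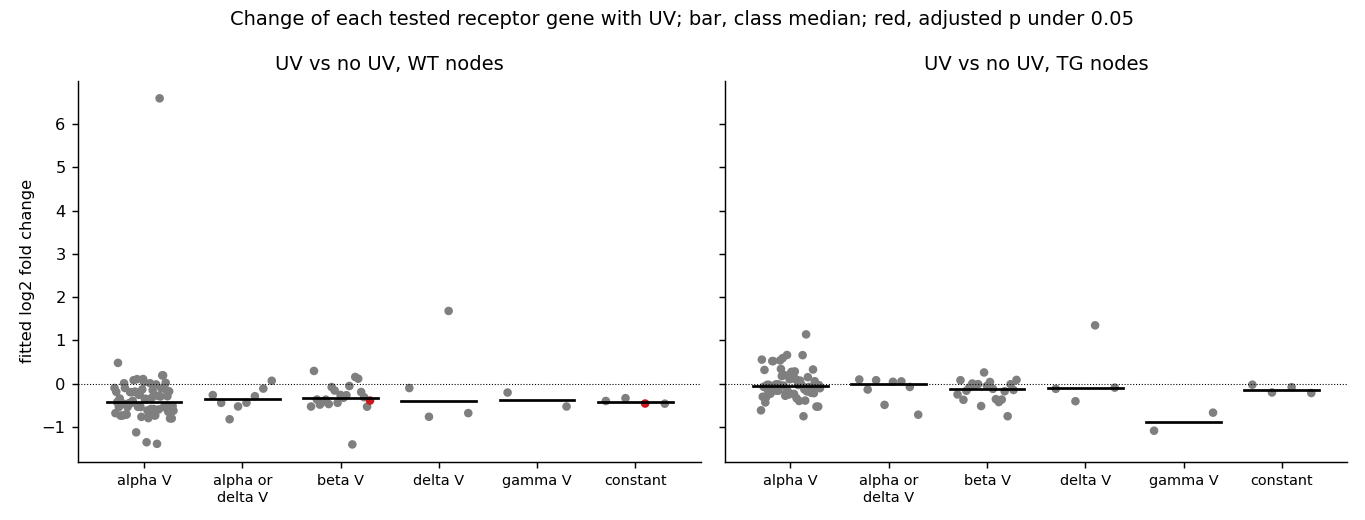
Fitted log2 fold change of each of the 108 tested receptor genes between UV and no UV, in WT (left) and TG nodes (right), by class, with the class median as a bar and red for an adjusted p under 0.05. Most points lie below 0 in WT nodes (92 of 108) and are spread around 0 in TG nodes, where the median is -0.08. The point at 6.59 is Trav7d-2, which had 35 counts in 1 irradiated WT library and none in the other 5 WT libraries.

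The genotype contrasts, which use the same 12 libraries as the UV contrasts, asked whether nodes of TG mice differ at rest or after UV. With edgeR no member was called without UV (0% of 16173), after UV (0%) or over both treatments, where 1 other gene of 16173 was called (0.00618%). Unadjusted p-values under 0.05 were found for 4, 6 and 4 of the 108 members, where 3.39%, 6.99% and 4.66% of all genes had one. DESeq2 called no member, where it called 0.0124%, 0.118% and 0.0807% of all genes. All 5 superantigen-targeted genes were lower in TG nodes in each contrast without passing the test, with every scaling and filter that kept them. The filter of at least 10 counts in every library removed Trbv26 and Trbv12-1, so it gave no value for them. Whether this goes beyond the beta V genes as a whole was not tested. Over both treatments the log2 fold changes were -1.10 for Trbv26 (SE 0.40), -0.83 for Trbv12-1 (SE 0.45), -0.39 for Trbv12-2 (SE 0.23), -0.50 for Trbv15 (SE 0.22) and -0.73 for Trbv16 (SE 0.24), each with an edgeR adjusted p of 1.00 when rounded. The gamma constants Trgc1, Trgc2 and Trgc4 had positive log2 fold changes over both treatments, of 0.95 (SE 0.34), 0.55 (SE 0.25) and 0.34 (SE 0.25), and did not pass either.

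Trbv26 had 13, 15 and 14 counts in WT nodes without UV but 5, 7 and 3 in TG nodes without UV, 4, 4 and 7 in WT and 6, 2 and 2 in TG nodes after UV. The untreated WT libraries stood apart from the other 9. Trbv16 had 80, 69 and 87 counts in WT and 60, 68 and 48 in TG nodes without UV, and 59, 72 and 69 against 30, 20 and 61 after UV. The sum over all 5 listed genes was 5.83 to 6.74 CPM in untreated WT and 4.84 to 6.07 in irradiated WT nodes. In TG nodes it was 3.60 to 4.67 CPM untreated and 3.06 to 3.64 irradiated, so TG and WT nodes did not overlap. The sum of all beta V genes did overlap, at 146 to 190 CPM in irradiated TG and 149 to 167 in irradiated WT. Without UV it was 169 to 189 CPM in TG and 185 to 208 in WT nodes. Trbc1 and Trbc2 together were lower in untreated TG without overlap (530 to 551 against 589 to 689 CPM in WT). After UV they overlapped (451 to 555 CPM in TG, 446 to 504 in WT).

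**Figure D5:**
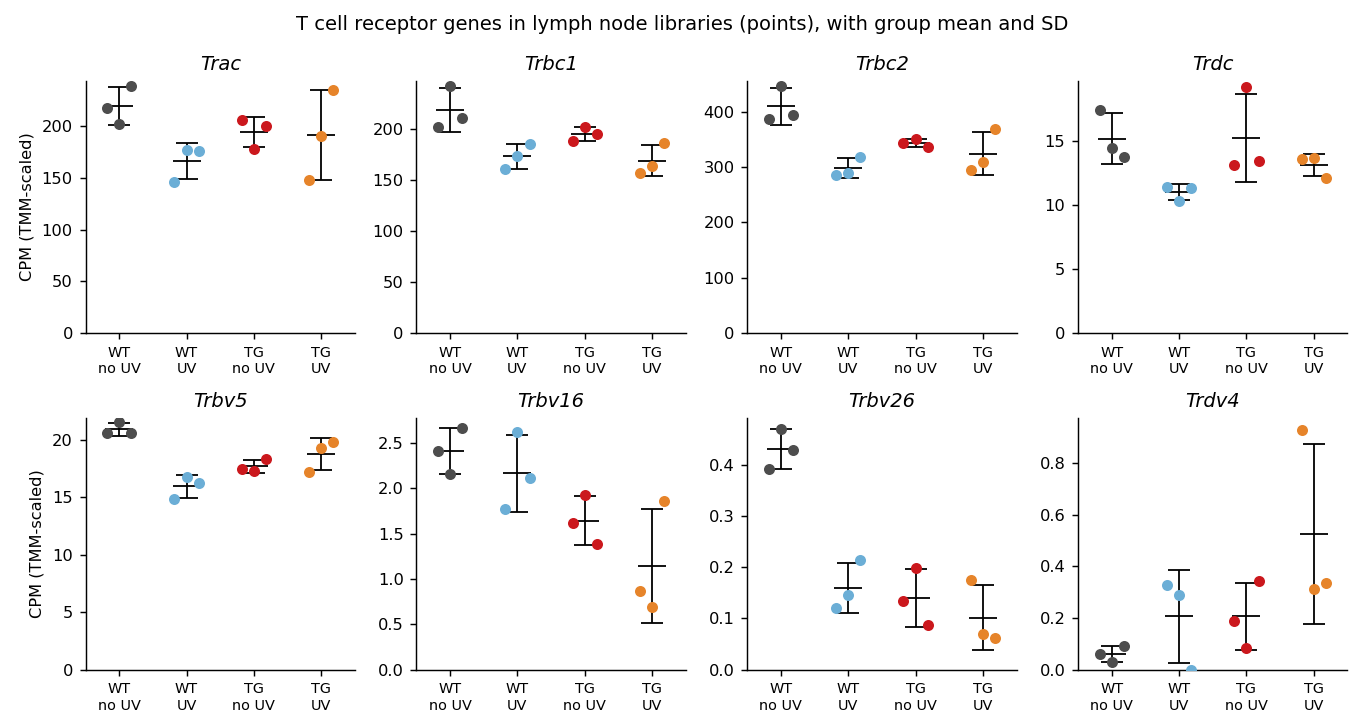
Level in CPM of 8 receptor genes in each lymph node library (points) with group mean and SD (bars), 3 libraries per group. Trbc2 and Trbv5 lie lower after UV in WT nodes, Trbv26 is highest in WT nodes without UV, and Trdv4 reaches its top value in 1 TG library after UV.

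Gamma-delta chains in nodes were low and uneven between libraries of a group. Trdv4 had 2, 1 and 3 counts in untreated WT, 7, 3 and 12 in untreated TG, 11, 8 and 0 in irradiated WT and 32, 9 and 11 in irradiated TG nodes. It was higher with UV (log2 fold change 1.51, SE 0.64, edgeR adjusted p = 0.140) and in TG nodes (1.52, SE 0.63, adjusted p = 1.00) without passing either test. Trdv4 was highest in TG UV library 10. Trgv6 was highest in that library and one other, with 16 counts in TG UV library 10 and 14 in WT UV library 7, and at most 6 elsewhere. Cd163l1 also peaked there, at 336 and 260 counts where the others had 15 to 195. Trgc1 peaked elsewhere, with 215 counts in TG library 5 without UV, which also had the most Trgv4 (48) and Sox13 counts (200). Trgv2 and Trgv4 led the gamma V signal in nodes, at 31.5% ± 9.00 and 40.5% ± 14.2 per exon length (n = 12), within each other's spread, and Trdv1 led the delta V signal at 43.6% ± 11.6. The log2 ratio of Trdc to Trac differed by -0.10 with UV and by 0.12 with genotype over the nodes (exact permutation within the other factor, two-sided, p = 0.580 and 0.555).

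Several V genes could not be separated by the counting. In nodes 13 pairs of alpha V genes with at least 12 counts over all libraries, such as Trav6-6 and Trav6d-6, whose coding sequences are identical over 344 bases, had equal counts in every library. Trav7-2 and Trav7d-2, which differ at 1 of 337 aligned positions, were never counted in the same library, and together had 19 to 50 counts per node library. For such genes a value belongs to the pair. The reads of BALB/c mice were counted against the C57BL/6 reference, and how far strain differences in V genes bear on single levels was not tested.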

How the data were processed

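RNA from skin and inguinal lymph nodes was sequenced from poly-A libraries. Per the submitters' processing notes, reads were checked with FastQC 0.11.8 and MultiQC 1.20, trimmed with cutadapt 4.8 and mapped to GRCm38 with STAR 2.7.8a. RSEM 1.3.3 estimated gene counts, and the authors deposited these expected counts as 1 table per tissue, in which the values are whole numbers. The annotation release and the use of strand were not given in the sources used here.

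Groups were taken from the labels, which name no batch within a tissue. Each tissue was fitted over all its groups with edgeR 4.0.16 (R 4.3.3): rounded counts, TMM factors, the filterByExpr filter (minimum count of 10, total of 15), the quasi-likelihood test and Benjamini-Hochberg adjustment over all genes tested, with a threshold of 0.05. CPM are counts over the TMM-scaled library size, times 1e6. SEs of log2 fold changes and their 95% intervals come from the same fits. DESeq2 1.42.0, RLE factors, other filters, fits of the compared libraries alone and leaving out each library were the alternatives. The ratio of Trdc to Trac was tested by exact permutation of libraries. V gene shares are counts divided by exon length in GENCODE M21, to which all 182 members matched. The fits were tested on simulated data in which 100 genes were changed 2-fold and 100 were changed 4-fold, drawn at random from all genes tested. In lesional against WT skin they recovered 32% of 2-fold and 64% of 4-fold changes, with 7 false calls. For UV in WT nodes they recovered 54% and 71%, with 4 false calls. Real changes of these sizes can therefore go uncalled. In the real skin comparison 23% of all genes were called higher and 20.2% lower, many more than the simulation changed. The simulated rates need not hold there, nor for members with few counts. Limits from counts cover counting error only, whereas the 95% intervals of fold changes include the fitted spread between libraries.

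Members, gene lists and tests were chosen with earlier results of these data known. Named were all constant and gamma V genes, Trdv4, the V genes of invariant receptors, the superantigen-targeted beta V genes, and in each comparison up to 6 called members in each direction by fold change, or, where fewer than 2 were called, the 2 with the smallest p. Other genes named for their values are marked as such. Marker lists for thymocytes, NK cells, macrophages, neutrophils, adipocytes and keratinocytes were also summed: in skin their levels were at most 0.378, 2.68, 515, 537, 2331 and 22259 CPM, and in nodes at most 5.73, 77.5, 51.1, 9.92, 0.920 and 2.44 CPM. 1 gene of the list of gamma-delta T cell genes outside the receptor is not reported here, and neither are that list's count and median.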

Additional observations from a re-analysis of the deposited data

Results flagged for a closer look

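A sample was marked where its distance from the nearest other sample of its group was large against the group's range (Dixon's ratio). Chance alone gives this in about 1 in 20 groups of normally distributed values. Only lesional skin had enough libraries, and 32 items were examined there: named genes, sums of gene sets and the ratio of Trdc to Trac. Lesional library 4 stood apart with Trgv5 at 0.4005 CPM (22 counts), where the other 3 had at most 2 counts. Lesional library 6 was marked for Trav1 at 0.04405 CPM (2 counts), Trav11d at 0.1101 CPM (5 counts), and Trbv12-1 and Trbv12-2 at 0.02203 CPM each (1 count each). None of the genes marked in library 6 had a count in another lesional library. A gene counted in a single library of a group is always marked, so nothing follows from the marks of library 6. Trgv5 was also counted in other lesional libraries, so its mark was not fixed in this way.

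Trav3-4 in nodes was marked because its UV effect had opposite signs in the genotypes. It had 51, 57 and 46 counts in untreated WT and 31, 25 and 46 in irradiated WT nodes, against 39, 50 and 38 in untreated and 55, 54 and 71 in irradiated TG nodes. The mean CPM after UV minus that without UV was -0.496 in WT nodes. The difference between the genotypes (log2 1.20, edgeR adjusted p = 0.848) did not pass the test over all genes.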

How the results depend on the processing

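No paired analysis was possible because the sample numbers in the labels run on through all libraries of a tissue, so that compared groups share none. In lesional against WT skin, 8 members were called. With at least 10 counts in every library this was 4, as that filter removes Trac, Trbv1, Trbv29 and Trgv5 from testing, and without 1 library it was 5 to 9. Against nonlesional skin 3 were called, 7 with DESeq2, 2 with only the libraries compared (Trdv4, and Trac in place of Trgv5 and Trdc) and 1 to 5 without 1 library. With UV in WT nodes 2 were called, 13 with DESeq2, 1 with no filter beyond 1 count, 4 with at least 10 counts in every library, 13 with only the libraries compared and 0 to 1 without 1 library. With UV over both genotypes 2 were called, 9 with DESeq2 and 0 to 17 without 1 library. The cause of these differences was not tested. The other comparisons gave 0 in each alternative, leave-one-out fits included. The log2 ratio of Trdc to Trac in lesional against WT skin was -5.967 to -4.428 without 1 library (exact permutation p = 0.0667 to 0.10, which fewer libraries bound from below), and -4.396 to -2.802 against nonlesional skin. For nonlesional against WT skin it was -2.436 to -0.829, for UV in WT nodes -0.187 to 0.054, in TG nodes -0.344 to 0.091 and over both -0.199 to 0.018, and for genotype without UV -0.077 to 0.302, after UV -0.127 to 0.285 and over both -0.004 to 0.224. The mean effective number of V genes in nodes, 57.2 for alpha and 14.4 for beta, was 43.14 and 13.86 over genes with at least 10 counts in every library, and 13.04 and 10.99 with numbered families summed. For named genes, 1899 of 1971 refitted values kept their direction and side of the threshold, 53 lost and 19 gained a call, no called value reversed, and 75 values that were not called changed sign. In skin the members took 0.00227% to 0.00455% of counts, so single V genes there rest on few reads.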
